A study of Mus musculus with 6 samples.

Results

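The libraries described are the 3 wild-type ones, of 6 in all: every sample whose title gives the genotype as wild-type. Each was made from macrophages washed out of the peritoneal cavity of C57BL/6 mice aged 6 to 8 weeks, with the cells of 2 mice pooled per library. The cells were freshly isolated, received no treatment, and were sorted by flow cytometry on F4/80 and CD11b. Total RNA was extracted with RNAzol and turned into libraries with a stranded TruSeq mRNA kit. The other 3 libraries carry a Zeb1 (+/-) genotype and enter no value here, so no genotype is compared. The spread reported is between pools of mice, and nothing in the labels says whether the pools were collected on separate days.

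The serous cavity of the abdomen holds a dense population of macrophages at rest. Most of them are large peritoneal macrophages, long-lived cells that depend on the transcription factor GATA6 and retinoic acid, clear dying cells, and supply clotting and complement factors to the cavity fluid. A minor population, small peritoneal macrophages, is replenished from blood monocytes, depends on IRF4 and is rich in MHC class II. F4/80 is the product of Adgre1 and CD11b the product of Itgam, and both populations carry these proteins, though large cells carry more F4/80.

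Levels are given on 2 scales. TPM divides the counts of a gene by its exon length and sets each library to a sum of 1000000, and is used to compare genes with each other. CPM, counts per 1000000 counts after TMM scaling (a library-wide factor from edgeR), is used to compare 1 gene between libraries. A gene was counted as expressed at 1 TPM or more in all 3 libraries. Values after ± are the SD over the 3 libraries (n = 3). Total counts were 33358835, 28073386 and 18574049 in replicates 1, 2 and 3, so that 1 CPM stood for 33.4, 28.1 and 18.6 counts. No test was run, because a single group leaves nothing to test against. A gene with no count in a library can still be present at up to 3 counts, or 0.0899, 0.107 and 0.162 CPM in replicates 1, 2 and 3, counting error only. Before any result, 2 libraries stood apart in part of their genes: replicate 1 was high in chaperone and haemoglobin genes, and replicate 3 in B cell, cell cycle and structural RNA genes, with the values given further on. In bulk RNA from many cells, fewer cells of a type and less RNA per cell cannot be told apart.

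The sort genes and the markers of large peritoneal macrophages were all expressed in every library, so the label and these markers were not in conflict. Itgam (ENSMUSG00000030786.18, GRCm38 chromosome 7, 128062640 to 128118491, strand plus) was at 2779.6, 3145 and 2951 TPM in replicates 1, 2 and 3. It ranked 39 of 22018 protein-coding genes. Of its 50-base stretches 66.3% also occur in Gm49368, an overlapping annotated gene. Adgre1 (ENSMUSG00000004730.14, chromosome 17, 57358691 to 57483527, strand plus) stood at 1979, 2107 and 2121 TPM and ranked 55. Both genes differed little between pools, with a highest library 1.05 and 1.02 times the lowest in CPM. Alox15, the 12/15-lipoxygenase that oxidises arachidonic and linoleic acid, was at 10133, 10302 and 9751 TPM and ranked 5. Prg4, the secreted lubricant proteoglycan lubricin, was at 8447, 8113 and 8426 TPM and ranked 11. Gata6, the defining transcription factor (chromosome 18, 11052064 to 11085635, strand plus), was at 49.6, 51.6 and 43.8 TPM. Its rank of 2450 was far below those of the effector genes Alox15 and Prg4, yet its level was above the median of 18.9 TPM over expressed protein-coding genes.

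Across the whole table, there were 11438 genes at 1 TPM or more in every library, 10589 of them protein-coding (48.1% of the 22018 protein-coding genes of the table). By mean TPM, 3254 of these protein-coding genes lay between 1 and 10, 6169 between 10 and 100, 1050 between 100 and 1000, and 116 at 1000 or above. Another 7399 protein-coding genes had no count in any of the 3 libraries. The 10 most abundant genes took 20.9 ± 1.68% of summed TPM, the top 100 took 47.5 ± 1.05% and the top 1000 took 75 ± 0.666%. Of these 10, 100 and 1000 genes, 7, 94 and 978 were protein-coding. Without the length correction, in CPM, the top 100 took 33.7%. The 87 genes of ribosomal proteins, 85 of them expressed, made up 8.10 ± 0.0796%, led by Rplp1 at 5631 ± 172 TPM, Rps3a1 at 3234 ± 111 TPM and Rps29 at 2850.3 ± 13.8 TPM. As reads were assigned, mt-Co1, a subunit of cytochrome c oxidase, was the highest gene of the mitochondrial genome at 11913 ± 1350.3 TPM. Next were mt-Cytb at 4954 ± 564 TPM and mt-Nd1 at 4579 ± 482 TPM. This order depends on how reads were divided with near-identical nuclear copies. mt-Co2, mt-Co3 and mt-Atp6 were listed at 257, 168 and 598 TPM, and their copies Gm28661, Gm28437 and Gm10925 at 11293, 11207 and 9539.7 TPM.

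The most abundant messenger by far was Lyz2, which encodes the lysozyme of macrophages that cuts bacterial cell walls. It was at 119130.1, 81748 and 94125 TPM in replicates 1, 2 and 3. Replicate 1 was the highest and replicate 2 the lowest. Its close relative Lyz1 ran the other way, at 3461, 7098 and 4492 TPM, with replicate 2 the highest. The 2 genes share 15.4% of the 50-base stretches of Lyz2, and their sum was 122591, 88846 and 98617 TPM. Apoe, the carrier of cholesterol and other lipids, followed at 25869, 30308 and 26364 TPM. The plot of the most abundant transcripts shows how far these stood above the rest: Fn1, the next gene of the plot, was at 10951 ± 1159 TPM.

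**Figure D1:**
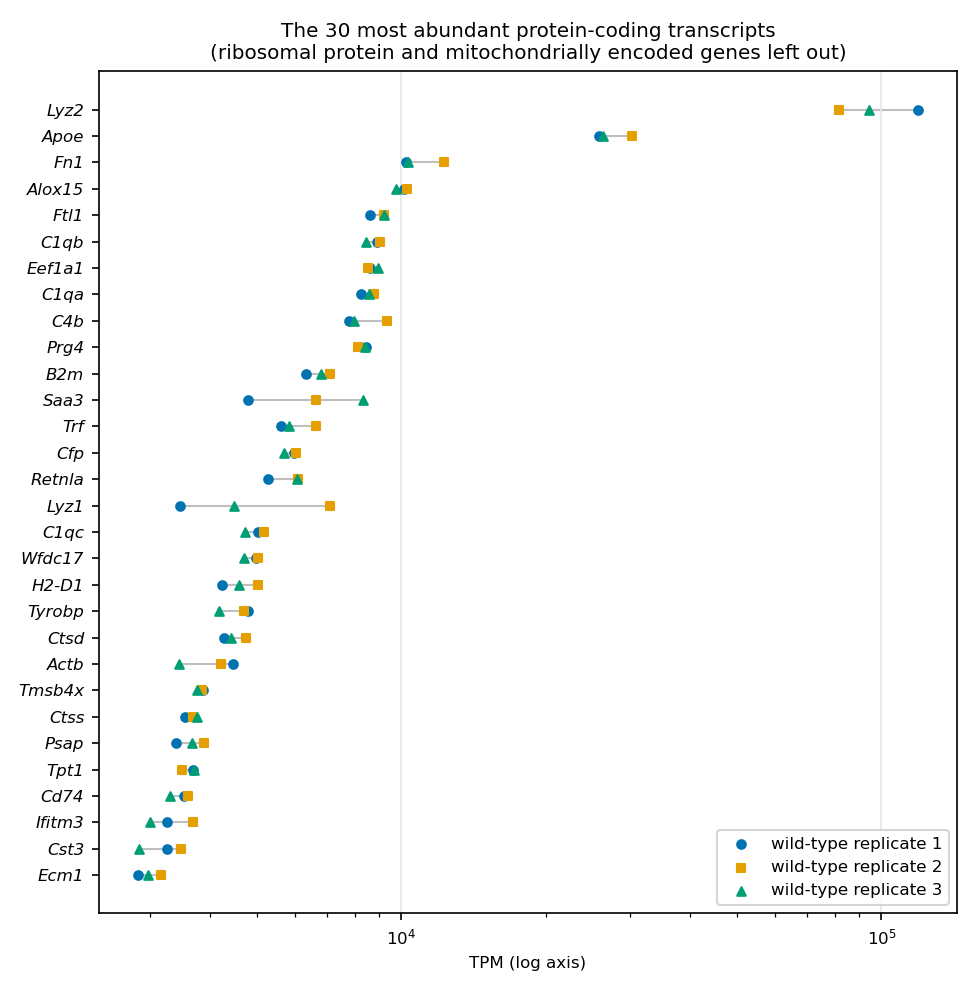
The 30 protein-coding genes of highest mean TPM, leaving out ribosomal protein and mitochondrially encoded genes, with 1 point per wild-type library on a log axis in TPM. Lyz2 and Apoe stand above all others, and Saa3 and Lyz1 show the widest gaps between libraries.

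Grouped by role, the other plotted genes included 5 of the complement system. C1qb, C1qa and C1qc, the 3 chains of the recognition molecule C1q, were at 8789 ± 306 TPM, 8525 ± 272 TPM and 4984 ± 227 TPM, C4b at 8369.6 ± 859 TPM and Cfp, which encodes the stabilising factor properdin, at 5911 ± 182 TPM. For C4b, 34.6% of its stretches are shared with C4a, which was listed at 1.56 TPM. Antigen presentation was represented by B2m (6752 ± 381 TPM), the light chain of MHC class I, by H2-D1 (4629.9 ± 402 TPM), a heavy chain, and by Cd74 (3478 ± 157 TPM), the invariant chain of MHC class II. Lysosomal products were Ctsd (4489 ± 247 TPM) and Ctss (3662 ± 102 TPM), both cathepsin proteases, and Psap (3648 ± 249 TPM), the precursor of the saposins. Cst3 (3195 ± 322 TPM) encodes a cathepsin inhibitor.

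Iron binding was represented by Ftl1 (9007 ± 337 TPM), the ferritin light chain, and Trf (6039.8 ± 538 TPM), transferrin. Of their stretches 50.9% and 59.4% also occur in other annotated genes, so part of these reads could belong elsewhere. The secreted products Saa3 (6592 ± 1775 TPM), a serum amyloid A, Retnla (5814 ± 459.6 TPM), a resistin-like protein of alternatively activated macrophages, Wfdc17 (4910.3 ± 177 TPM) and Ecm1 (2991 ± 171 TPM), an extracellular matrix protein, were also among the top 30. Saa3 was the least even of these, at 4794, 6639 and 8343 TPM in replicates 1, 2 and 3. Tyrobp (4559 ± 342 TPM), the adaptor DAP12 of activating receptors, and Ifitm3 (3315 ± 352 TPM), which restricts viral entry, were the remaining immune genes. The remaining 4 of the 30 serve general cell functions: Eef1a1 (8684 ± 224 TPM), a translation elongation factor, Actb (4046 ± 535 TPM) and Tmsb4x (3825 ± 55.1 TPM), actin and an actin-binding peptide, and Tpt1 (3625 ± 117 TPM), a translationally controlled protein. With the longest transcript taken as the length, Tpt1 was at 5874 TPM.

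Every one of the 25 genes listed for large peritoneal macrophages was expressed, against 48.1% of all protein-coding genes. Medians of lists are over all listed members, expressed or not. Here the median was 767 TPM, and 20 of 25 were at 100 TPM or above, which 5.30% of all protein-coding genes reached. The lists were chosen with earlier results of these data known, so these shares describe the list and do not test cell identity. The 25 genes together made up 5.19% of summed TPM. Secreted and matrix proteins were among its highest members. Fn1, fibronectin, was at 10221, 12287 and 10344 TPM, and Thbs1, the adhesive matrix protein thrombospondin 1, at 1948 ± 243 TPM. Slpi, an inhibitor of leukocyte proteases, was at 2572 ± 355 TPM. Cxcl13, the chemokine that draws B cells, was at 2221, 3022 and 3526 TPM, with replicate 3 the highest and replicate 1 the lowest. Clotting factors of the list were F5 at 818 ± 97 TPM and F10 at 442 ± 21.2 TPM. Serpinb2, an inhibitor of plasminogen activators, was at 1199.8, 1039.7 and 833 TPM, with replicate 1 the highest and replicate 3 the lowest.

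Surface members of the same list were also far above the median of all genes. Timd4, the phosphatidylserine receptor TIM-4 that binds dying cells, was at 1255, 1294 and 1300.2 TPM, with libraries that lay within a few percent of each other (CV 2.11% in CPM). Vsig4, a complement receptor, was at 889 ± 48.3 TPM, Icam2 at 876 ± 70.9 TPM, the selectin gene Selp at 714 ± 75.7 TPM and the integrin gene Itga6 at 596 ± 43.5 TPM. The growth factor gene Tgfb2 was at 271 ± 33.9 TPM and Ltbp1, whose product holds latent TGF-beta in the matrix, at 375 ± 24.2 TPM. The lowest member was Rarb, a retinoic acid receptor, at 15.8, 17.8 and 16.6 TPM, just below the median of expressed genes. Gata6 and Rarb, regulators of transcription, were both among the 4 lowest of the 25.

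Promoter sequences of this list are shown because the letters TATAAA, the core of the TATA box, were frequent in it. Windows of 300 bases, from 250 before to 50 after the annotated start, came from RefSeq (GRCm38.p6) and matched 16157 of 22018 protein-coding genes by name, with 19713 windows. Searched on both strands, the letters occurred in 8 of 20 windows of the list, from 7 of 17 matched genes. Over all protein-coding genes the share was 12.1%, and over expressed ones 6.66%. A high share was not particular to this list. In other lists it ran from 0% (integrins) to 55.6% (classical activation genes). It was 42.9% in MHC class I presentation and 22.2% in small peritoneal macrophage genes. The 4 printed below were chosen after their values were seen, as members with the match close to the start. Capitals mark the match, on either strand, and each runs 5′ to 3′ on the gene's strand up to the base before the start. They cover chr1:107511363-107511422 (plus strand), chr1:186705990-186706049 (minus strand), chr5:95956879-95956938 (plus strand) and chr10:93488708-93488767 (plus strand), in the order printed, all upstream of the first exon.
Serpinb2: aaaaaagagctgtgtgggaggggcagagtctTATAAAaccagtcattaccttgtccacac
Tgfb2: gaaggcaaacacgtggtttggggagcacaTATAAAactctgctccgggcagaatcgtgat
Cxcl13: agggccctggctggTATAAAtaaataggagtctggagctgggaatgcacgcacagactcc
Hal: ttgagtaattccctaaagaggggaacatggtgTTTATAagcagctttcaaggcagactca
In these the match began 29, 31, 46 and 28 bases before the start. A match is a description of the letters in the window and does not show that they are used. A GATA-type motif, AGATAA on either strand, was in 3 of the 20 windows (15%), against 9.45% of all windows and 6.28% of those of expressed genes. The small peritoneal macrophage list had it in 16.7% of its windows, so this too was not particular to the large cell list. GAGGAAGT, a motif of the PU.1 type, was in none of the 20 and in 3.12% of all windows.

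Promoter make-up also varied with the level of expression across all genes. The observed over expected frequency of CpG had a median of 0.213 in windows of genes with no count, 0.723 from 1 to 10 TPM, 0.789 from 10 to 100 TPM and 0.742 from 100 to 1000 TPM. At 1000 TPM or more it was 0.591, and 0.403 once ribosomal protein genes were left out. TATAAA followed the opposite course, in 22.9% of windows of genes with no count, 6.16% from 10 to 100 TPM and 24.1% of the 87 windows at 1000 TPM or more. Genes at either end of the range of levels thus had lower CpG ratios, and TATAAA more often, than those from 10 to 100 TPM. The windows of the large peritoneal macrophage list had a median CpG ratio of 0.290. This was not particular to it, with 0.275 in general macrophage genes and 0.182 in small peritoneal macrophage genes. Other lists were higher, up to 0.909 in cell cycle genes.

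Genes listed for small peritoneal macrophages were present at lower levels, 17 of 18 of them expressed, with a median of 92.4 TPM. Retnla was the exception at 5284, 6101 and 6057 TPM. The next highest were the membrane protein gene Tmem176b at 551 ± 20.4 TPM and the Fc receptor-like gene Fcrls at 209 ± 9.95 TPM. Irf4, the transcription factor of these cells, was at 69.4, 67.1 and 52.8 TPM against 48.4 ± 4.06 TPM for Gata6. Ccr2, the receptor by which monocytes enter tissues, was at 121 ± 5.40 TPM and Mrc1, the mannose receptor, at 105 ± 10.8 TPM. Cx3cr1, the fractalkine receptor, was near the bottom at 2.82 ± 0.383 TPM. The median CV of the expressed members was 11.6% in CPM, against 9.29% for the large peritoneal macrophage genes. Lyve1, a hyaluronan receptor, was at 104, 101 and 151 CPM, Cd163, the haemoglobin scavenger receptor, at 104, 77.5 and 137 CPM and Folr2, a folate receptor, at 87.2, 80.1 and 118 CPM, all highest in replicate 3. Mgl2, a lectin, was at 57.6, 32.7 and 43.4 CPM and Itgax at 12.6, 7.40 and 7.36 CPM, both highest in replicate 1. In CPM none of the 17 expressed members was highest in replicate 2, where 30.3% of all expressed protein-coding genes had their highest value. In TPM, where that share was 45.6%, some members, Retnla among them, were highest in replicate 2.

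**Figure D2:**
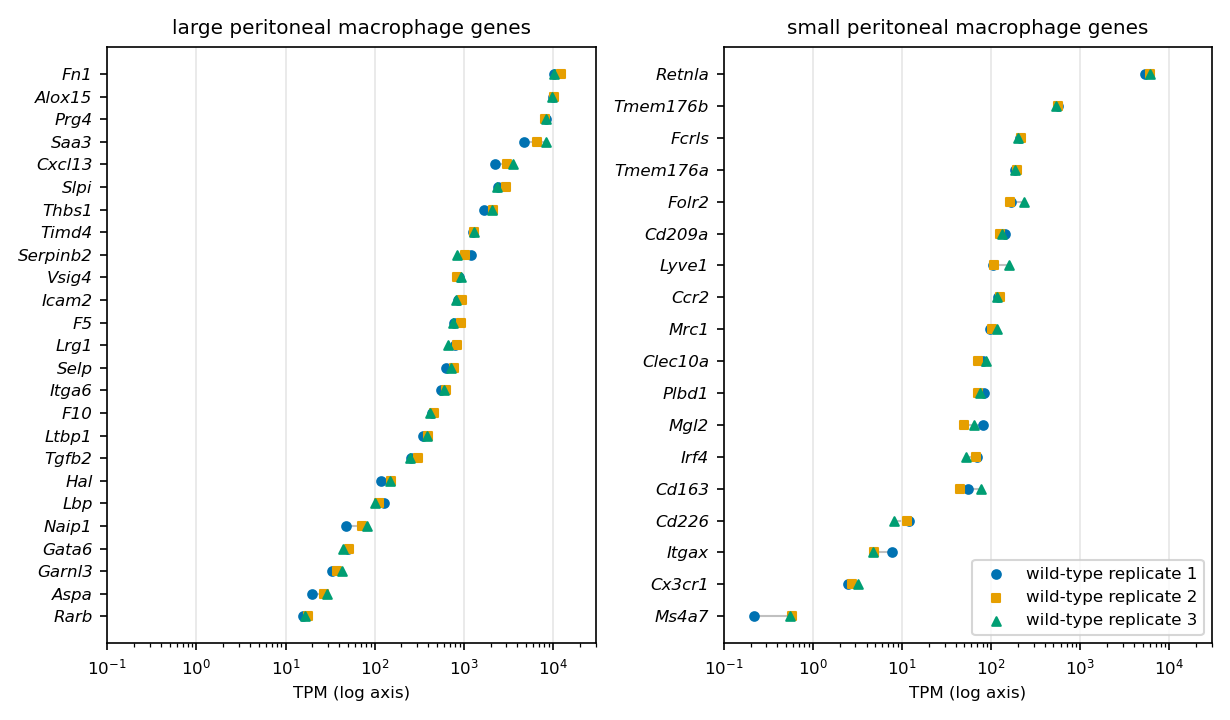
TPM of each listed gene of large (left) and small (right) peritoneal macrophages, 1 point per wild-type library, on log axes with the same range. All 25 genes on the left lie above 10 TPM, and on the right only Retnla exceeds 1000 TPM while Ms4a7 lies under 1 TPM.

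General macrophage genes were expressed without exception, 20 of 20 with a median of 578 TPM. After Lyz2 and Tyrobp came Ctss and Itgam, and then Laptm5, a lysosomal membrane protein of blood cells, at 2481 ± 161 TPM. Csf1r, the receptor for the growth factor on which macrophages depend, was at 1019.7, 1135 and 1092 TPM, and Cd68, a lysosomal glycoprotein, at 1074 ± 78.3 TPM. Of the 14 monocyte genes 10 were expressed, and the median over all 14 was 5.10 TPM. Hp, which encodes haptoglobin, led at 339 ± 30.6 TPM, before F13a1, a clotting factor subunit, at 228 ± 55.8 TPM and Ccr2. Ly6c2, the gene of the classical monocyte marker, was at 0.618, 0.285 and 0.597 TPM, under the 1 TPM threshold in every library. Genes that mark macrophages of other tissues were mostly low, with 6 of 18 expressed at a median over all 18 of 0.125 TPM. The exceptions were Cd5l, a secreted scavenger protein, at 2223 ± 126 TPM, Ear2, a ribonuclease, at 135 ± 9.40 TPM and Fabp4, a fatty acid binding protein, at 122 ± 7.61 TPM. The Kupffer cell gene Clec4f, the microglial regulator Sall1 and the Langerhans cell gene Cd207 had no count in the 3 libraries, as had Car4 and Krt79.

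All 30 transcription factors listed for the macrophage lineage were expressed, at a median of 50.7 TPM. Klf2, a regulator that restrains inflammatory genes, was the highest at 649, 713 and 565 TPM. Irf5, which drives inflammatory cytokine genes, was at 220.3 ± 12.1 TPM. Cebpa and Cebpb, which set the myeloid programme, were at 217 ± 36.3 TPM and 201 ± 25.9 TPM, and Spi1, the gene of PU.1, at 214 ± 16.9 TPM. The nuclear receptor genes Rxra and Rara were at 118 ± 18 TPM and 63.8 ± 13.1 TPM, well above Pparg at 2.39 ± 0.477 TPM. The 2 ZEB factors, which bind E-box sequences, were unequal. Zeb2 was at 82.9, 88 and 86.2 TPM (rank 1384) and Zeb1 (chromosome 18, 5591860 to 5775467, strand plus) at 1.57, 2.32 and 2.17 TPM (rank 10142), the lowest of the 30. With the longest transcript as length Zeb2 was at 149 TPM.

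Recognition genes were spread across a wide range. Of 23 Toll-like and other pattern receptor genes 21 were expressed, and the median over all 23 was 28.5 TPM. Cd14, the co-receptor for lipopolysaccharide, led at 628, 750.4 and 790.4 TPM. Tlr13, which senses bacterial ribosomal RNA, was at 183 ± 13.3 TPM and Clec7a, the beta-glucan receptor dectin-1, at 148 ± 30.6 TPM. Tlr7 was at 119 ± 7.81 TPM, Tlr2 at 117 ± 14.7 TPM and Tlr4 at 50.9 ± 3.31 TPM, while Tlr5, the flagellin receptor, was at 0.897 ± 0.0505 TPM and Tlr9, a DNA sensor, at 3.65 ± 0.379 TPM. All 16 inflammasome genes were expressed (median 41.6 TPM), led by the adaptor Pycard at 171 ± 11.4 TPM, Casp1, the protease that matures interleukin-1 beta, at 169 ± 16.4 TPM and the flagellin sensor Naip5 at 143 ± 17.8 TPM, 36.8% of whose stretches are shared with other genes, mainly Naip1. Their substrates were less abundant, with Il18 at 23.7 ± 2.15 TPM and Il1b at 3.39 ± 0.795 TPM.

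Antigen presentation genes were high in both classes. MHC class I presentation had 15 of 15 members expressed with a median of 89.9 TPM, and MHC class II presentation 12 of 13 with a median of 172 TPM. In class I, H2-K1 followed B2m and H2-D1 at 1807 ± 171 TPM. In class II, H2-Eb1 was at 971, 965 and 939 TPM, a chain of the peptide-binding molecule, after Ctss, which cleaves the invariant chain, and Cd74. Ciita, the transactivator of the class II genes, was at 10.5 ± 1.81 TPM. B cells and small peritoneal macrophages also express class II genes, and their part in these levels was not tested.

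Receptor genes had a higher median than ligand genes. Of 31 chemokine and cytokine receptor genes 24 were expressed, of 32 cytokine and growth factor genes 21, and of 26 chemokine ligands 15. Medians over all listed members were 51.9, 5.01 and 3.99 TPM in that order. Over the expressed members alone they were 107, 9.12 and 63.9 TPM. After Csf1r the highest receptors were Ccr1, for inflammatory CC chemokines, at 454 ± 9.05 TPM and Csf3r, for granulocyte colony-stimulating factor, at 339 ± 32.5 TPM. Chains of the interleukin-10, interferon and tumour necrosis factor receptors lay between 50 and 300 TPM, with Tnfrsf1a at 293 ± 13 TPM, Il10ra at 216 ± 28.1 TPM and Ifngr1 at 182 ± 8.33 TPM. The chemokine ligands that were high were Cxcl13, Ccl6 at 2679 ± 183 TPM, Pf4, platelet factor 4, at 2236 ± 114 TPM and Ccl9 at 697 ± 52.6 TPM. Among growth factors Grn, progranulin, was the highest at 1676 ± 58.4 TPM, then Tgfb2 and Tnfsf13, the B cell factor APRIL, at 258 ± 9.57 TPM. The tumour necrosis factor gene Tnf was at 8.98, 7.29 and 5.89 TPM, Il6 at 3.05, 4.14 and 2.49 TPM and Il10 at 1.77, 0.682 and 2.62 TPM. Csf2, Csf3 and Ifnb1 had no count.

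Activation genes did not form a single block. Of 17 genes listed for classical activation 12 were expressed. The median was 3.39 TPM over all 17 and 27.5 TPM over the 12. The highest were Marco, a scavenger receptor, at 740.4 ± 139.8 TPM and Cxcl2, a neutrophil chemokine, at 374 ± 91.5 TPM. Socs3, a brake on cytokine signalling, was next at 219.6 ± 51.7 TPM. Nos2, the inducible nitric oxide synthase, was at 0.0606, 0.0759 and 0 TPM and Il12b, a subunit of interleukin-12, at 0.0453, 0 and 0 TPM. Of 18 genes listed for alternative activation 12 were expressed. The median was 58.2 TPM over all 18 and 115 TPM over the 12. They were led by Alox15, Retnla and Ccl24, an eosinophil chemokine, at 301 ± 7.58 TPM. Arg1, arginase 1, was at 131, 116 and 174 TPM, and Chil3, a chitinase-like protein induced by interleukin-4, was at 11.6 ± 4.26 TPM. Alox15 stands on both the large peritoneal macrophage list and this one, and Retnla on both this one and the small peritoneal macrophage list.

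Genes for the uptake of dying cells and other cargo were broadly present. In the list for phagocytosis of apoptotic cells 22 of 26 were expressed, with a median of 77.7 TPM. Next to the C1q chains and Timd4, the lipid receptor Cd36 was at 558 ± 52.6 TPM, the bridging protein gene Pros1 at 381 ± 5.57 TPM and the receptor tyrosine kinase genes Mertk and Axl at 112 ± 21.7 TPM and 71.1 ± 8.25 TPM, while the third kinase of that family, Tyro3, was at 0.0880 ± 0.0666 TPM. In scavenger receptors 16 of 20 were expressed (median 50.3 TPM), led by Cd5l, Cd68 and Marco. Stab1 was at 84.4 ± 16.1 TPM and its relative Stab2 at 0.00425 ± 0.00736 TPM. In Fc receptors 9 of 14 were expressed (median 44.8 TPM), led by Fcgr3 at 1640.1 ± 108 TPM, the shared signalling chain gene Fcer1g at 1056 ± 74.9 TPM and Fcgrt, the neonatal receptor that recycles antibody, at 433, 474 and 491 TPM. The inhibitory receptor gene Fcgr2b was at 317 ± 29.5 TPM.

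The complement and coagulation lists were expressed to different extents. The complement list had 21 of 26 members expressed, with a median over all 26 of 122 TPM, and made up 4.54% of summed TPM. Of the central and alternative pathway, C3 was at 356 ± 50.7 TPM and Cfb at 841 ± 69.8 TPM, with 73% of the stretches of Cfb shared with the overlapping gene Gm20547. The anaphylatoxin receptor genes C3ar1 and C5ar1 were at 244 ± 15 TPM and 185 ± 24.4 TPM. Cfd and Cfi, 2 proteases of the pathway, had no count. The coagulation list had 13 of 30 expressed, a share near the 48.1% of all protein-coding genes. Its median over all 30 was 0.804 TPM, near the 0.802 TPM of all protein-coding genes. Serpinb2, F5 and F10 led it, and F7, factor VII, was at 122 ± 13 TPM. Plaur, the urokinase receptor, was at 190.3 ± 28.5 TPM. Tissue factor, F3, was at 1.19 ± 0.0806 TPM, and the genes of prothrombin (F2) and factor IX (F9) at 0.0194 ± 0.0336 TPM and 0.0879 ± 0.0658 TPM.

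Adhesion, matrix and lipid mediator genes each had a few members at very high level, with many low ones in the first 2 lists. Of 26 integrin genes 14 were expressed (median 2.25 TPM), led by Itgam and its partner Itgb2 at 2567 ± 70.7 TPM, then Itgb1 at 974 ± 19.6 TPM. Of 26 matrix and protease genes 15 were expressed (median 13.8 TPM), led by Fn1, Prg4 and Ecm1. Timp2, an inhibitor of matrix metalloproteinases, was at 1152 ± 126 TPM, far above Mmp9, a gelatinase, at 27.3, 31.6 and 31.2 TPM and Mmp12 at 0.112 ± 0.0398 TPM. Of 25 eicosanoid genes 19 were expressed (median 35.2 TPM). Below Alox15, Alox5ap and Ltc4s of the leukotriene pathway were at 1357 ± 61.4 TPM and 782 ± 23.5 TPM, Ptgis, prostacyclin synthase, at 541 ± 41.2 TPM and Ptgs1, the constitutive cyclooxygenase, at 443 ± 4.79 TPM. Ptgs2, the inducible cyclooxygenase, was at 1.25, 0.731 and 0.714 TPM, far below Ptgs1 in all 3 libraries.

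Lipid and iron genes were for the most part expressed. Lipid handling had 29 of 31 members on, with a median over all 31 of 65.5 TPM. Behind Apoe were Pltp, the phospholipid transfer protein, at 2269 ± 356 TPM and Apoc2, an activator of lipoprotein lipase, at 614 ± 55.1 TPM, 78.3% of whose stretches are shared with Gm44805. The cholesterol exporter genes Abca1 and Abcg1 were at 65.5 ± 5.61 TPM and 22.3 ± 5.39 TPM. Gpnmb and Trem2, which mark lipid-laden macrophages, were at 1.44 ± 0.363 TPM and 30.7 ± 2.35 TPM. Iron and haem handling had 18 of 22 on, with a median over all 22 of 44.2 TPM. It was led by Ftl1, Fth1 at 966 ± 42.3 TPM, the ferritin heavy chain, and Hp. Hmox1, which opens the haem ring, was at 268 ± 33.9 TPM and Slc11a1, the phagosomal metal transporter NRAMP1, at 333 ± 19.8 TPM. Slc40a1, the iron exporter ferroportin, was at 0.0495, 0.0992 and 0.0909 TPM, below the 1 TPM threshold in every library.

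Lysosomal genes were both abundant and even. Of 42 members 39 were expressed, 29 of them at 100 TPM or above. The median over all 42 was 265 TPM, and the list made up 2.97% of summed TPM. Ctsd, Ctss, Psap and Laptm5 led. Below them were Ctsb at 1798 ± 74.9 TPM, Lamp1, a membrane glycoprotein of the lysosome, at 1585, 1634 and 1603 TPM and Hexa, a hexosaminidase, at 1557 ± 76.2 TPM. Their CPM varied between libraries with a median CV of 2.83%, against 6.55% over protein-coding genes at 10 CPM or more, and 0 of the 39 expressed members reached a 1.5-fold difference between the highest and lowest library. Over all 10589 expressed protein-coding genes 6.52% did. Among those at 10 CPM or more 214 of 8241 did, a share close to the 0 of this list. Summed, the list was at 31024, 31089 and 30503 CPM in replicates 1, 2 and 3.

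The hexamer CACGTG, the core of the CLEAR element by which TFEB and TFE3 bind lysosomal genes, was searched in the promoter windows of this list. It reads the same on both strands. It occurred in 11 of 35 windows (31.4%), against 7.97% of all windows and 10.3% of those of expressed genes. Among the other lists the highest shares were 22.7% in heat shock and chaperone genes and 18.2% in immediate-early genes. Several lists had none. Of the factors, Tfe3 was at 41.7 ± 2.08 TPM and Tfeb at 13.9 ± 1.35 TPM. The sequences of Lamp1, Ctsd, Lgmn, an asparagine-specific protease, and Glb1, the lysosomal beta-galactosidase, show the match in capitals. They are the 100 bases before the start, at chr8:13159061-13159160 (plus strand), chr7:142387828-142387927 (minus strand), chr12:102439093-102439192 (minus strand) and chr9:114400978-114401077 (plus strand), and were chosen after the matches were seen.
Lamp1: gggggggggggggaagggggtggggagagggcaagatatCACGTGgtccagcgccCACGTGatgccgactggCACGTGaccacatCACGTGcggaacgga
Ctsd: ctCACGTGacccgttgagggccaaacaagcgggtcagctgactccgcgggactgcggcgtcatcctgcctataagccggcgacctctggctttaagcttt
Lgmn: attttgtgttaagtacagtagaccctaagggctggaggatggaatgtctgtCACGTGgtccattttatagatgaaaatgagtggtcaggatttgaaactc
Glb1: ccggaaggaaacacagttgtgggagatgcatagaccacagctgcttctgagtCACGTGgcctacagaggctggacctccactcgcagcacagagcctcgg
Lamp1 held 4 copies within these 100 bases and each of the others 1. No binding was measured, so the share of windows with the hexamer describes sequence alone.

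Energy and stress genes were present throughout. Of 22 glycolysis genes 21 were expressed (median 69 TPM), led by Gapdh at 1146 ± 131 TPM, Eno1 at 595 ± 15.8 TPM and Ldha, lactate dehydrogenase A, at 468 ± 20.2 TPM. The glucose transporter genes Slc2a1 and Slc2a3 were at 11.9 ± 1.70 TPM and 0.510 ± 0.180 TPM. Interferon-stimulated genes were on in 30 of 35 cases (median 37.1 TPM), led by Ifitm3, Ifitm2 at 1818 ± 184 TPM, with 48.5% of its stretches shared, and Ifi27l2a at 935 ± 88.4 TPM. Isg15, which tags proteins during antiviral responses, was at 26.8 ± 2.82 TPM and Cxcl10 at 0.859 ± 0.453 TPM. Immediate-early genes, which respond to stimulation and to cell handling within minutes, were on in 21 of 24 cases (median 69.2 TPM), led by Fos at 806, 805 and 618 TPM, Dusp1, a phosphatase of MAP kinases, at 707 ± 58.8 TPM and Zfp36, which destabilises cytokine mRNA, at 703 ± 67.1 TPM. All 20 heat shock and chaperone genes were on (median 154 TPM), led by Hspa8 at 1358 ± 438 TPM, Calr at 1141 ± 95.7 TPM and Hsp90ab1 at 1041 ± 112 TPM. Cell cycle genes were on in 24 of 25 cases but low (median 5.64 TPM), led by Pcna, the sliding clamp of replication, at 97.7 ± 4.78 TPM, Mcm3 at 26.7 ± 2.21 TPM and Mcm6 at 24.3 ± 2.15 TPM, with Mki67 at 8.31, 9.73 and 14.1 TPM.

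**Figure D3:**
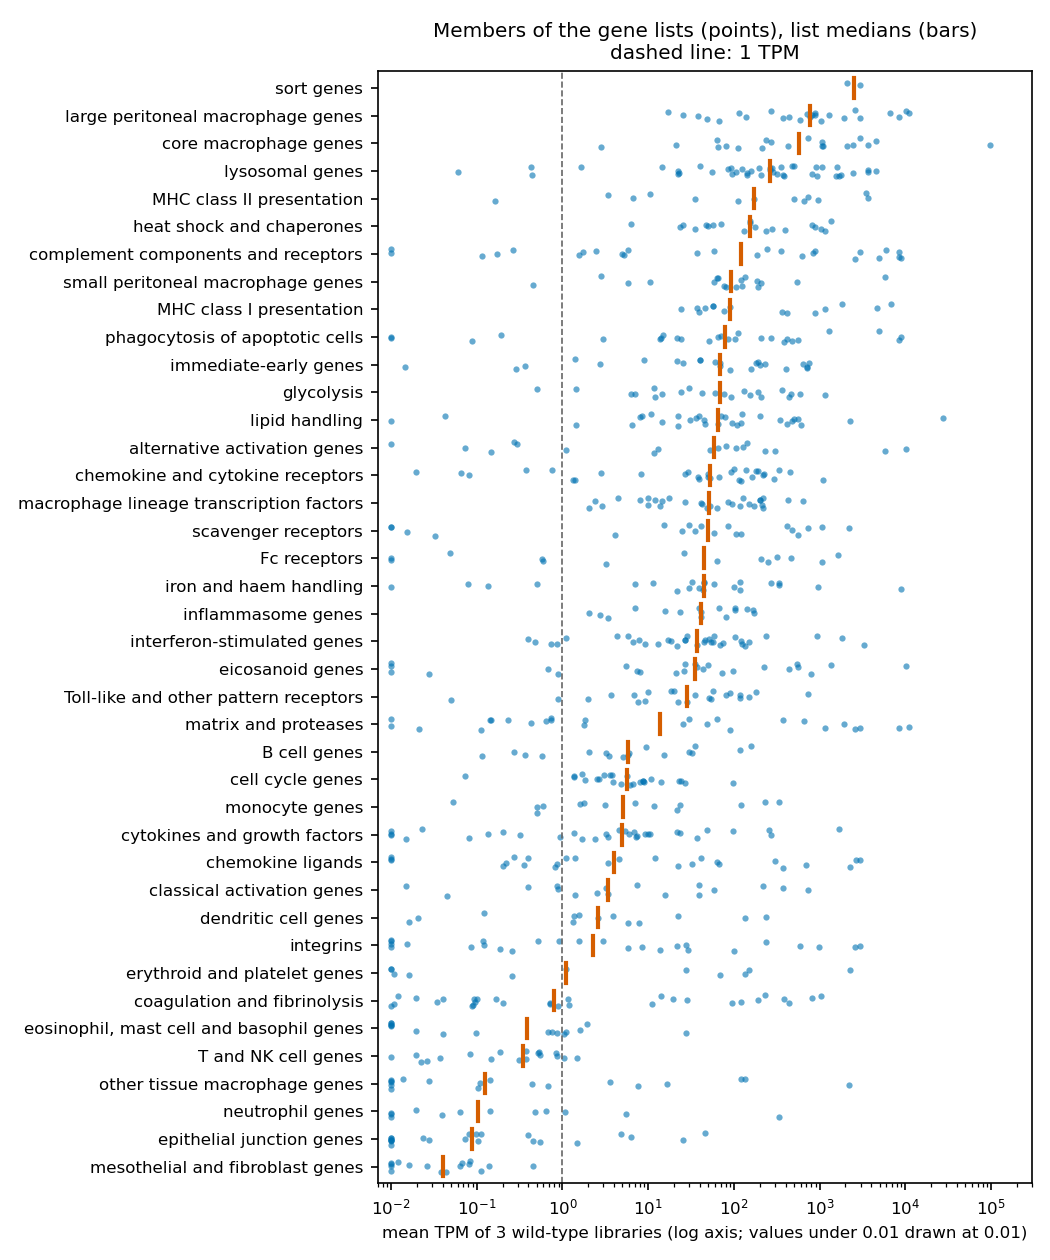
Mean TPM of each member (points) and the median of each of 40 gene lists (bars), on a log axis, with lists ordered by their median. The dashed line marks 1 TPM, and the list medians run from 2514 TPM for the 2 sort genes to 0.0408 TPM for mesothelial and fibroblast genes.

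Markers of other cells of the cavity were at or near 0 for most lists, with B cells the clearest exception. Of 17 B cell genes 13 were expressed, with a median over all 17 of 5.75 TPM. The antibody genes Ighm and Igkc led at 127, 119 and 233 TPM and 105, 84.2 and 167 TPM. Cd79a, of the antigen receptor, was at 28.3, 27.6 and 50.7 TPM. Replicate 3 was the highest in each. T and NK cell genes were on in 0 of 18 cases, with sums of 6.99, 2.67 and 4.55 CPM in replicates 1, 2 and 3, the top members Trbc2, Tcf7 and Trac at 1.46, 1.05 and 0.869 TPM, and Gzmb at 0. Of 12 neutrophil genes 2 were on, Csf3r and S100a8 (5.54 ± 0.658 TPM), with S100a9 at 1.08 ± 0.711 TPM. Csf3r also stands on the receptor list, and Ly6g, Mpo and Ngp had no count. Eosinophil, mast cell and basophil genes were on in 2 of 16 cases, Hdc (27.8 ± 4.56 TPM), which makes histamine, and Cma1 (1.93 ± 0.667 TPM), with Cpa3 at 1.60 ± 1.18 TPM. Epx, Prg2 and Fcer1a had no count.

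Dendritic cell genes were on in 8 of 13 cases, with a median over all 13 of 2.61 TPM. The leading members were Bst2, an interferon-stimulated gene, at 239.8 ± 11.3 TPM, Cd209a, a lectin that is also a small peritoneal macrophage gene, at 133 ± 8.56 TPM and Batf3 at 22 ± 4.14 TPM, while Xcr1 and Siglech, which define subsets of these cells, were at 0.0206 ± 0.0188 TPM and 0.0161 ± 0.0279 TPM. Mesothelial and fibroblast genes were on in 0 of 16 cases. Their sums were 0.704, 1.97 and 0.772 TPM, with Krt18 at 0.454 ± 0.236 TPM, Dcn at 0.138 ± 0.113 TPM and Krt8 at 0.113 ± 0.0976 TPM the highest. Epithelial junction genes were on in 5 of 22 cases, with Jup, plakoglobin, at 46.3 ± 3.75 TPM and Ocln, occludin, at 25.7 ± 2.30 TPM, while Cdh1, E-cadherin, was at 0.0732 ± 0.0341 TPM. Erythroid and platelet genes were on in 5 of 11 cases, Pf4 and the 4 adult haemoglobin genes, of which Hbb-bs was at 334, 61.6 and 53 TPM and Hba-a2 at 309, 56.6 and 43.6 TPM. Gp9 and Ppbp, which define platelets, had no count, although Pf4 was at 2236 TPM.

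The 3 pools were close to each other for most genes. Over 8241 protein-coding genes with a mean of at least 10 CPM, the median CV was 6.55%, with quartiles of 4.19 and 9.84%, where counting alone would give a median of 3.08%. The common biological coefficient of variation of edgeR, which sets counting error aside, was 9.87% over 12388 genes, and 8.27% without replicate 1. Of the 8241 genes, 214 differed by at least 1.5-fold and 32 by at least 2-fold between the highest and lowest library. Spread depended weakly on level. The median CV was 7.34% from 10 to 30 CPM, 6.18% from 30 to 100 CPM, 6.07% from 100 to 300 CPM and 6.05% from 300 CPM, while the part due to counting fell from 4.7 to 0.861%. The 10 genes of lowest CV were all under the CV that counting gives at their level, and as they were picked for it, this is a description only. They were Man2c1, a mannosidase (0.115%), the transcription factor genes Elf1 (0.117%), Bdp1 (0.131%) and Smad3 (0.20%), the DNA polymerase gene Pola1 (0.118%), Smim14 (0.152%), the phosphodiesterase gene Pde4a (0.188%), Abi1 (0.197%), Herc4 (0.199%) and Entpd5 (0.202%).

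**Figure D4:**
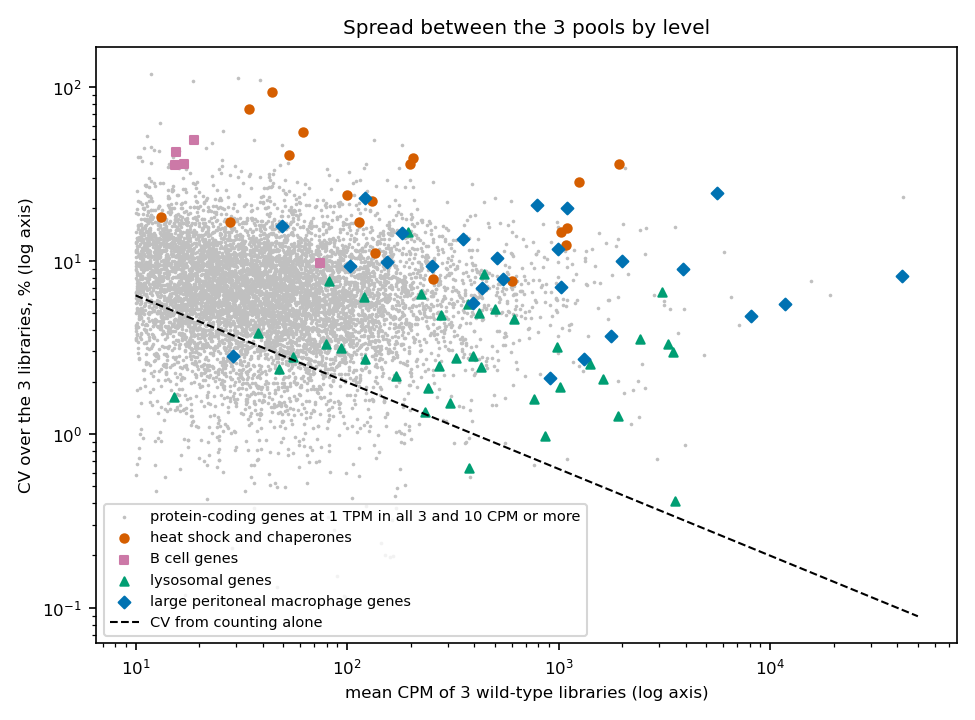
CV over the 3 wild-type libraries against mean CPM, both on log axes, for protein-coding genes expressed in all 3 libraries with a mean of at least 10 CPM (grey), with 4 gene lists in colour. The dashed line is the CV that counting alone would give, and lysosomal genes lie low while heat shock and B cell genes lie high for their level.

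At the other end, 15 genes had the highest ratios between libraries, and a few of these rested on how reads were divided between near-identical copies. Gm14288 was at 14.8, 15.9 and 0.159 CPM in replicates 1, 2 and 3, while Gm14440, which holds all of its stretches, was at 1.13, 0 and 12.5 CPM. Their sum was 15.9, 15.9 and 12.7 CPM, so that a ratio of 100.3 became 1.25 for the pair. mt-Atp6 was at 193, 149 and 61.9 CPM, but with its nuclear copy Gm10925 on chromosome 1 the ratio fell from 3.12 to 1.29. For the gene listed as ENSMUSG00000030653.17, at 17.7, 6.04 and 10.1 CPM, 98.1% of stretches are shared with Pde2a. Gm14296, at 2.81, 13.6 and 13.8 CPM, shares 56.1% with other genes. The same sharing affects the mitochondrial share of the transcript pool: genes of the mitochondrial genome made up 3.63 ± 0.349% of summed TPM, 6 nuclear copies on chromosome 1 another 3.91 ± 0.481%, and both together 7.55 ± 0.829%. Most reads of mt-Co2 were assigned to the copy Gm28661, at 76.3, 53.8 and 44.3 CPM against 2580.0, 2165 and 2830.1 CPM.

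Of the other genes of highest ratio, Hspa1a and Hspa1b are described with the heat shock genes. Pdk4, the kinase that shuts pyruvate out of the citric acid cycle, was at 1.56, 6.01 and 27.8 CPM, a ratio of 17.8. Haemoglobin genes were highest in replicate 1, with Hba-a2 at 70.6, 12 and 9.42 CPM, Hbb-bs at 87.8, 15.1 and 13.2 CPM and Hba-a1 at 42, 7.72 and 6.35 CPM. Hba-a2 and Hba-a1 have 89.3% and 72.3% of their stretches in other genes, so their reads could be divided between copies. Also highest in replicate 1 were Tppp, a tubulin-binding protein gene, at 41.3, 23.5 and 12.8 CPM and the transcription factor gene Rfx2 at 56.3, 32.3 and 20.6 CPM. Highest in replicate 3 were the lectin gene Clec2g at 6.44, 10.5 and 22.1 CPM, Fbxo32, a ubiquitin ligase subunit, at 5.74, 11.6 and 15.4 CPM and the transcription factor gene Klf11 at 11.5, 22.3 and 30.6 CPM. Of the 214 genes past 1.5-fold, 92 were highest in replicate 1, 35 in replicate 2 and 87 in replicate 3.

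Heat shock and chaperone genes marked replicate 1. All 20 were highest there, where 42.6% of all expressed protein-coding genes had their highest value, and 10 of 20 differed by 1.5-fold or more, against 6.52% of all. The inducible HSP70 genes Hspa1a and Hspa1b were at 63.5, 26.2 and 13.9 CPM and 91.2, 27.1 and 14.2 CPM. They share 60.3% and 62.3% of their stretches, mainly with each other, and their sum was 155, 53.3 and 28.2 CPM. Hspa8, the constitutive form, was at 2731, 1639 and 1425 CPM, Hsph1, a partner of HSP70, at 101, 45.4 and 38.8 CPM and Dnajb1, its co-chaperone, at 77.5, 45.5 and 36.2 CPM. Replicate 1 was well above both others in each of these. The count was 20 of 20 also with other size factors, raw totals and TPM. In a list added after the values were seen, all 20 chaperones of the secretory pathway were highest in replicate 1 as well, 9 of them shared with the first list, with Hspa5, the chaperone BiP, at 1657, 1073 and 1015 CPM and Herpud1, which serves the removal of misfolded proteins, at 166, 106 and 88.3 CPM.

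A heat shock element of the form GAA, any 2 bases, TTC, any 2 bases, GAA was searched on both strands. It occurred in 4 of 22 promoter windows of the list (18.2%), those of Hspd1, Hspe1 and Hsph1, against 0.507% of all windows. The 22 windows came from 17 genes, and no other gene of the list had a match. Most other lists had none, but dendritic cell genes had it in 2 of 7 windows (28.6%). Small peritoneal macrophage genes had it in 5.56%, so it was not particular to the heat shock list. A gene can have more than 1 window, and whether the matched windows overlap was not checked, so the same element may be counted more than once. Hspe1, which encodes the mitochondrial co-chaperonin, is shown because it holds overlapping matches, given in capitals. The sequence is the 100 bases before its start, at chr1:55088048-55088147 (plus strand).
Hspe1: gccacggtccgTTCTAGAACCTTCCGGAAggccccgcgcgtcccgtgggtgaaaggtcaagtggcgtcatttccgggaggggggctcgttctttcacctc
Hspe1 itself was at 33.3, 24.9 and 25.7 CPM, a smaller difference than that of Hsph1.

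Immediate-early, glycolysis and haemoglobin genes were also often highest in replicate 1. Of 21 expressed immediate-early genes 14 were highest in replicate 1 in CPM, against 42.6% of all expressed protein-coding genes. In TPM 9 of 21 were, where the share of all was 22.1%. Jun, a subunit of the transcription factor AP-1, was at 197, 152 and 145 CPM, while Fos was at 649, 603 and 471 CPM and Fosb at 60.7, 66 and 30.6 CPM, both lowest in replicate 3. Glycolysis genes were highest in replicate 1 in 15 of 21 cases in CPM and 11 in TPM, against the same shares of all, with Gapdh at 1795, 1527 and 1349 CPM. The 4 adult haemoglobin genes summed to 215, 37.1 and 31.6 CPM, and without replicate 1 the median of the erythroid and platelet list was 0.367 TPM in place of 1.11 TPM. What set replicate 1 apart was not tested.

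Interferon-stimulated genes were highest in replicate 2 in 23 of 30 cases in CPM, against 30.3% of all expressed protein-coding genes, but by small amounts. In TPM the count was 24 of 30, against 45.6% of all. Ifitm3 was at 755, 798 and 658 CPM, Oas2, an antiviral nucleotide synthetase, at 182, 215 and 194 CPM and Oas3 at 41, 58.8 and 48.7 CPM. Of the 30, 2 passed 1.5-fold, near the 6.52% of all expressed protein-coding genes. The list summed to 2909, 3115 and 2746 CPM.

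Replicate 3 was marked by B cell and cell cycle genes. Of 13 expressed B cell genes 12 were highest there, against 27.1% of all expressed protein-coding genes. Of the 13, 11 passed 1.5-fold, against 6.52% of all. Ms4a1, the gene of CD20, was at 14.2, 12.7 and 29.6 CPM and Ighm at 82.1, 71.7 and 142 CPM, with replicates 1 and 2 close together and replicate 3 apart. Summed, the 17 genes were at 255, 227 and 395 CPM. All annotated immunoglobulin genes summed to 127, 111 and 229 CPM without TMM scaling. Of 24 expressed cell cycle genes 20 were highest in replicate 3 and 15 of 24 passed 1.5-fold, against the same shares of all. Without replicate 3 the list medians were 4.72 TPM for B cell genes and 3.99 TPM for cell cycle genes. Mki67 was at 28.6, 31.2 and 45.8 CPM, Top2a, a topoisomerase of dividing cells, at 21.4, 19.5 and 35.9 CPM and Ccna2, cyclin A2, at 5.19, 5.55 and 11.8 CPM, again with replicates 1 and 2 together. Replication genes moved less, with Pcna at 82.7, 70.5 and 77.9 CPM and Mcm3 at 31.3, 32.3 and 34.9 CPM. Whether the B cell genes and the cell cycle genes have a common source in replicate 3 was not tested.

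Structural RNA also stood out in replicate 3, which had the smallest total. Small nuclear, ribosomal and related RNA classes summed to 4.14, 8.69 and 42.2 CPM without TMM scaling. Gm42418, a noncoding locus that overlaps ribosomal RNA sequence, was at 382, 398 and 1186 CPM. Lars2, the mitochondrial leucyl-tRNA synthetase gene, was at 144, 123 and 279 CPM. In a list of fatty acid oxidation genes added after Pdk4 had been seen, 12 of 21 expressed members were highest in replicate 3 in CPM, against 27.1% of all expressed protein-coding genes, and 15 of 21 in TPM, against 32.3%. They included Cpt1a, which brings fatty acids into mitochondria, at 128, 166 and 219 CPM and the lipid droplet gene Plin2 at 306, 353 and 513 CPM. Acadm and Hadha, enzyme genes of the beta-oxidation cycle itself, lay close together, at 53, 49 and 50.6 CPM and 122, 114 and 112 CPM. Of the 21 expressed members 5 passed 1.5-fold, against 6.52% of all expressed protein-coding genes.

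**Figure D5:**
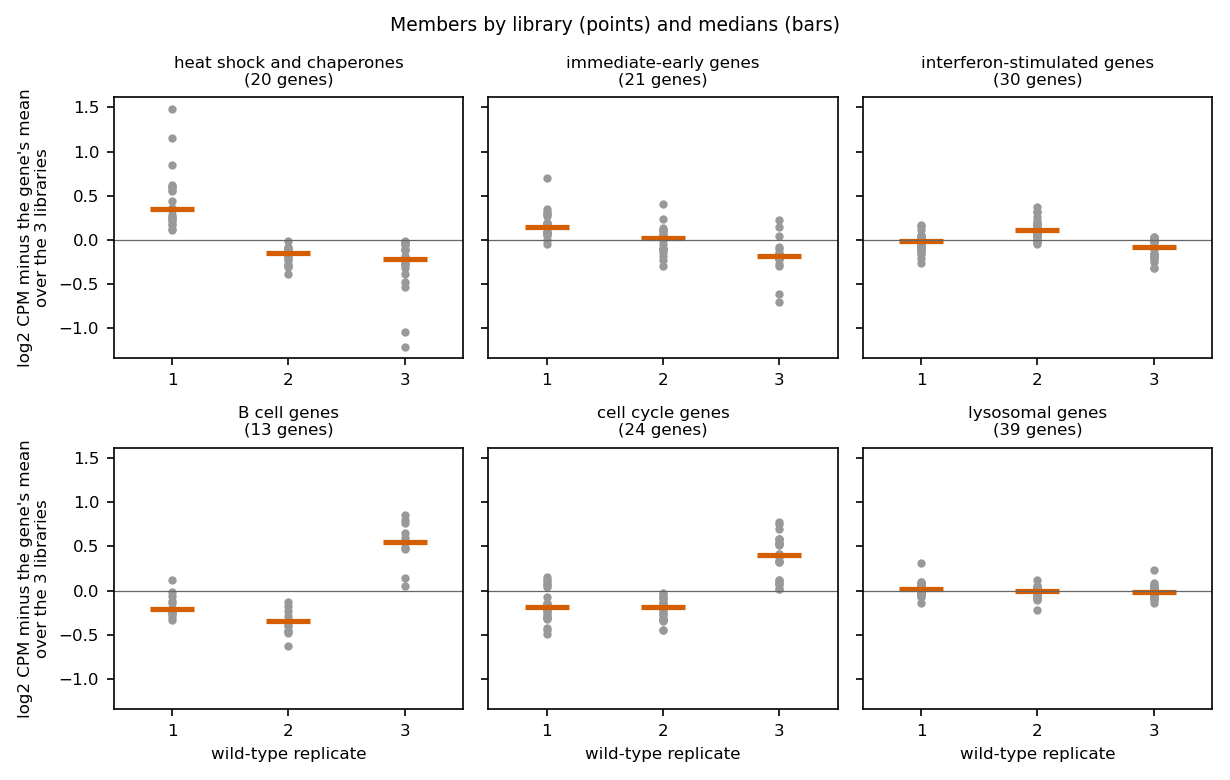
For 6 gene lists, log2 CPM of each expressed member minus that gene's mean over the 3 wild-type libraries (points), with the median per library (bars). Heat shock genes lie above 0 in replicate 1, B cell and cell cycle genes in replicate 3, and lysosomal genes lie near 0 in all 3.

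The sex-linked genes were alike in the pools. Xist, which silences 1 X chromosome in female cells, was at 102, 122 and 111 TPM and the Y-linked gene Ddx3y had no count in any library. Other long noncoding RNAs at high level were Malat1 at 242 ± 21.1 TPM and Neat1 at 115 ± 23.9 TPM.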

How the data were processed

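Only the 3 wild-type columns of the deposited gene table were used. Its deposited values are expected counts per gene, as the RSEM program estimates them, per the submitters' processing notes. These notes name STAR, RSEM and edgeR, without version or role, and the build GRCm38. All deposited values were whole numbers, so rounding by the authors is likely. How strand was handled in counting, and which annotation served, is not given in the sources used here. The identifier in each sample's description mapped the columns, and 0 stayed unmapped.

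Exon lengths and coordinates came from GENCODE M21 (GRCm38), which matched 84.9% of identifiers with their version and 99.3% without. The 360 genes with no length held 0.0369% of the counts. Where several identifiers had 1 symbol, 122 of lower count were named by identifier. TPM here are counts per kilobase of merged exons, scaled to 1000000. CPM use TMM factors (0.982, 1 and 1.02) from edgeR 4.0.16 in R 4.3.3. The biological coefficient of variation was estimated with an intercept only over genes kept by filterByExpr (minimum count 10, minimum total 15), a step tested on simulated data. Shared sequence is the share of a gene's 50-base stretches found in annotated transcripts of other genes.

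The members and the 40 gene lists were chosen with earlier results of these data known. Of 783 listed symbols 780 were in the table. Bai1, Irg1 and Ym2 are older names of Adgrb1, Acod1 and Chil4, which are listed as well. Another 3 lists (fatty acid oxidation, circadian clock, secretory pathway chaperones) were added after the values were seen. Genes named by rule are the 30 protein-coding genes of highest mean TPM outside ribosomal protein and mitochondrial genes, the top 3 of those 2 classes, the top 3 members of each list, the sort genes, Adgre1, Itgam, Gata6, Prg4, Alox15, Zeb1, Zeb2, Ddx3y and Xist, the 15 genes of highest ratio and the 10 of lowest CV at 10 CPM or more, and their near-identical copies. A few of these genes are not reported here. All other genes are examples chosen after their values were seen. Alternatives were other thresholds, lengths, denominators, size factors and filters, and each library left out in turn.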

Additional observations from a re-analysis of the deposited data

How the results depend on the processing

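The number of expressed genes stayed within 1.5 times of 11438 under every threshold, length and left-out library tried, from 9024 at 5 TPM to 12299 at 0.5 TPM. The share of the most abundant genes moved by more than its SD with the scale. With the longest transcript as length the top 10, 100 and 1000 genes took 18.6, 44 and 73.2%, and in CPM, without length, 16.5, 33.7 and 63.5%. Over protein-coding genes without mitochondrially encoded ones the top 100 and 1000 took 45.7 and 74%. Of the 40 gene lists 24 had a median of at least 10 TPM in each setting. The median of 1 list, erythroid and platelet genes, moved by more than 1.5 times without replicate 1, that of 1, mesothelial and fibroblast genes, without replicate 2, and those of 2, B cell and T and NK cell genes, in the protein-coding denominator, which leaves out antigen receptor segments. The common biological coefficient of variation ran from 8.27 to 11.4%, and the median CV from 4.89 to 5.69%, with 1 library left out. The second has 2 values per gene in place of 3. Immediate-early genes highest in replicate 1 numbered 9 by TPM in place of 14, while the share of all expressed protein-coding genes highest there moved from 42.6 to 22.1%. The mitochondrial share was 7.55% with nuclear copies in place of 3.63%. No paired analysis was possible because the results come from no test and 1 group. Depth limits genes under about 1 CPM most in replicate 3, where 1 CPM is 18.6 counts.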

Other observations

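Circadian clock genes, a list of 19 written after the values had been seen, were expressed in 15 of 19 cases. The median over all 19 was 3.48 TPM. Several of them differed between the pools. Nr1d1 and Nr1d2, repressors of the clock loop, were at 1.71, 3.16 and 4.71 CPM and 6.90, 11.1 and 17.6 CPM in replicates 1, 2 and 3. Per2, a core period gene, was at 9.62, 5.76 and 4.87 CPM, highest where the other 2 were lowest. The activator Arntl was at 31.5, 34.3 and 43 CPM and its partner Clock at 87.7, 87.1 and 81.1 CPM. Of the 15 expressed genes 6 differed by 1.5-fold or more between libraries, against 6.52% of all expressed protein-coding genes. Most of these genes are low, and the time of day at which the mice were used is not given in the labels.

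Angptl4, a secreted inhibitor of lipoprotein lipase, was at 1.28, 2.77 and 11.7 CPM, highest in replicate 3 like Pdk4. The solute carrier gene Slc27a1, a fatty acid transporter, was at 19.2, 20.6 and 36.8 CPM. Ppara and Ppargc1a, regulators of fatty acid use, were at 0.279 TPM and 0.0331 TPM in the mean. These genes were named after their values were seen.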
